A study of Mus musculus with 2 samples.

Results

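The 105 regions described here are stretches of accessible chromatin at the ends of cytosolic ribosomal protein genes, measured by ATAC-seq in sorted basal cells of mouse back skin. They were taken from 109257 merged regions, of which 94857 held at least 20 counts summed over both libraries and 15679 of those lay at an end of any of 21900 protein-coding genes. A region was included if it held at least 20 counts and overlapped either annotated end, with 1 kb added, of a protein-coding gene named Rpl or Rps with digits, Rplp0, Rplp1, Rplp2 or Rpsa. Of 84 genes with such a name, 78 had at least 1 region, 53 of them a single one, 22 a pair and 3 of them 3 regions, and 1 region belonged to a pair of them. The set is wider than promoters: 59 regions overlapped, with 1 kb added, the outer annotated end on the start side of 58 genes, 22 at the far end of a gene, and 24 at genes whose strand is not in the reference tables used here.

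The stretched library came from 1 CD1 mouse whose skin had been expanded by force, and the control library from 1 CD1 mouse with no treatment. CD1 is an outbred stock, so the animals also differ in genotype. In both, cells of the interfollicular epidermis positive for the integrin ITGA6 and negative for CD34 were sorted, and 10000 cells went into each library, in which the transposase Tn5 cuts and tags open DNA. Age, sex and the duration of stretching were not used here. Each group had 1 library, so differences carry no p-value and no measure of the spread between animals, and animal, library and treatment cannot be told apart. Folds are stretched over control after TMM scaling, which sets the median of all regions near 1. Each bracketed range of a fold is an exact Clopper-Pearson 95% interval for counting error only.

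Cytosolic ribosomes translate the messages of the nucleus, and each is built from ribosomal RNA and a fixed set of proteins named for the small (Rps) or large (Rpl) subunit. Growing cells make these proteins in matched amounts. Their genes are among the most highly transcribed in most cell types, and their messages usually begin with a cytosine and a run of pyrimidines, the 5′ terminal oligopyrimidine tract through which mTOR signalling sets their translation. In skin, missense mutations of mouse Rps19 and Rps20 are known to darken the epidermis through p53 in keratinocytes. Processed copies of these genes are common in mammalian genomes. No source used here says how reads that fit several places were treated, so counts over exons are less certain than counts upstream of a start.

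The DNA around the start is shown for genes at both limits of the measured range and for a few partners. Each sequence runs 5′ to 3′ on the gene's own strand from 100 bases before to 25 bases after the first base of the transcript in the RefSeq promoter table (GRCm38). Capitals mark matches to the searched motifs and runs of at least 7 pyrimidines near the start. Rps19 had the most counts at its start, Rpl37 the largest and Rps3 the smallest fold at a start with at least 100 counts. Rps27 and Rps27l are paralogs, and Rplp0 carries the stalk of the large subunit. The windows are chr7:24884492-24884616 on the plus strand, chr15:5116513-5116637 (plus), chr7:99483685-99483809 (minus), chr3:90213624-90213748 (minus), chr9:66945986-66946110 (plus) and chr5:115559367-115559491 (plus).
Rps19: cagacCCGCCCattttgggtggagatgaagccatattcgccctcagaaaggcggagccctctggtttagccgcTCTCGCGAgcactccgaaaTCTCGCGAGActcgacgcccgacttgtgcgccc
Rpl37: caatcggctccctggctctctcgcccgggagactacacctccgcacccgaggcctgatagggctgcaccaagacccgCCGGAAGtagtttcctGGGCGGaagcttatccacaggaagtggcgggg
Rps3: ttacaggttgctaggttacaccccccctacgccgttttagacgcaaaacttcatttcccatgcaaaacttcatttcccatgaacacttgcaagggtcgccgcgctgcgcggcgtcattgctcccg
Rps27: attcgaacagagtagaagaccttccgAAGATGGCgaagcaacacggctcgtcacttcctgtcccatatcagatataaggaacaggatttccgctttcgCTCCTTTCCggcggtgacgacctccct
Rps27l: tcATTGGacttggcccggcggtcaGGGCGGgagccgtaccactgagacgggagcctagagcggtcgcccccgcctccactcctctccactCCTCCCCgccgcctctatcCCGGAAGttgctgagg
Rplp0: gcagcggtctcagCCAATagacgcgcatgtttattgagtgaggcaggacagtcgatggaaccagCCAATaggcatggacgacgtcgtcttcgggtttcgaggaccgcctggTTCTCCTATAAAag
The Rps19 window holds TCTCGCGA 3 times counting both strands, the last pair being the 2 strands of the palindrome TCTCGCGAGA, and a GC box on the minus strand. Rpl37 has an ETS motif and a GC box within the last stretch before its start. Rps3 has none of the motifs searched in this window. Of the windows shown, only that of Rps27 has the cytosine and pyrimidine run described for the family at its start. The base there is a guanine at Rps19, Rps3, Rps27l and Rplp0, and an adenine at Rpl37. A cytosine at the annotated start was found in 22 of 64 ribosomal protein promoters (34.4%), against 13.7% of other promoters.

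Accessibility at ribosomal protein gene ends was higher in the stretched than in the control library relative to the median region. The 105 regions held 14320 counts in the stretched library and 10540 in the control library, a fold of 1.44 (1.40 to 1.47). The fold of the sum over the 15574 gene-end regions of other genes was 1.31. The median log2 fold of the 105 regions was 0.46, with quartiles of 0.11 and 0.77 and a range of -1.44 to 1.37. It was 0.21 over the other gene-end regions. A total of 87 regions had a fold above 1 and 18 below.

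These directions are relative to the scaling. With total counts as the scale, the median log2 fold was -0.04 for the ribosomal protein regions and -0.50 for all regions. A group of 10 very large regions, none of them at these genes, held 48.9% of the stretched and 34.5% of the control total. The distance between the ribosomal protein regions and the other gene-end regions, 0.26 in log2, is the same under every constant scaling by construction. Folds below are on the TMM scale.

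Counted one by one, 12 of the 105 regions (11.4%) were at least 2-fold higher with an interval that excludes 1 and 2 were at least 2-fold lower. With total scaling these numbers were 0 and 5, and 4 regions were higher once the median of gene-end regions of like count was removed. On the TMM scale, the rule was met by 8.49% of gene-end regions of other genes upward and 4.33% downward, and by 7.22% and 8.71% of all regions. These shares stand beside the 12 and 2 regions only, and were not measured for the other settings. An interval above 1, whatever the fold, was found at 55 ribosomal protein regions (52.4%), and one below 1 at 3. These shares were 36.1% and 11.7% at other gene ends, and 18.6% and 15.6% over all regions. The 2-fold calls were therefore close to the background upward, and the difference from other genes lay in many moderate folds.

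The start and the far end of the genes gave different values. The 59 start regions had 8764 counts in the stretched and 6184 in the control library, a fold of 1.498 (1.45 to 1.55), and 54 of them lay above 1. Their median log2 fold was 0.59, against 0.28 at 10381 starts of other genes. Some of them, such as those of Rpl18, Rpl19 and Rpl32l, hold no start listed in the RefSeq promoter table. A region within 1 kb of both ends of a short gene was counted as a start, here and at other genes. The Rpl32l region thus lies past the far end of its gene, and 1 of the 2 Rpl41 regions covers the far end. The 58 merged regions that hold a listed start of these genes, inside or outside the set, had a median of 0.58 and a fold of 1.528. Of the 59 start regions, 9 were at least 2-fold higher and 0 lower, and 35 (59.3%) had an interval above 1 and 0 below. Starts of other genes were called higher in 9.45% and lower in 2.87%, with intervals above 1 in 42.1% and below 1 in 9.32%.

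The 22 far-end regions had 1693 counts in the stretched and 1703 in the control library, a fold of 1.05 (0.982 to 1.12). Their median log2 fold was 0.04, with 11 regions above 1 and 11 below. At the far ends, 1 was called higher and 2 lower, against 4.7% and 9.85% of 2000 far ends of other genes. There, 5 had an interval above 1 and 3 below, against 11.2% and 19.6% at far ends of other genes, whose median was -0.15. Both regions called lower were at far ends. The 24 regions without a listed strand resembled the starts, with a median log2 fold of 0.58 and 22 of them above 1. Starts that also touched the end of a neighbouring gene (18) and starts that did not (41) had the same median, 0.59.

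**Figure D1:**
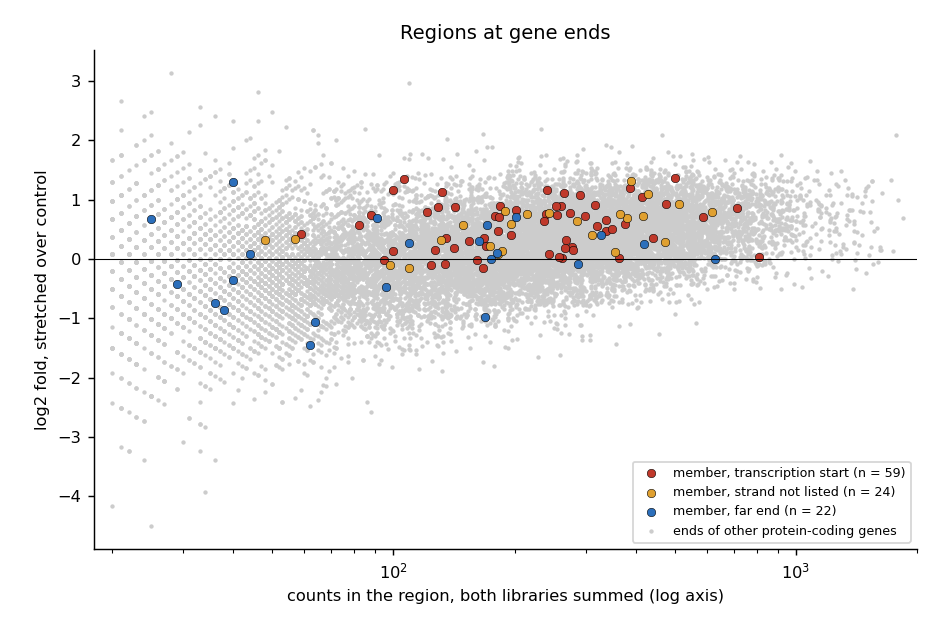
Each dot is a region at a gene end, with its counts summed over both libraries on a log axis and its log2 fold (stretched over control, TMM scale) on the vertical axis, and other genes' regions of 2000 or more counts are not drawn. Most ribosomal protein starts (red, 54 of 59) lie above 0, whereas the far ends (blue) lie on both sides (11 and 11), and scaling by total counts would lower every dot alike and put the median of all 105 at -0.04.

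The fold of a region depended on its count in these libraries, so starts were also compared at like count. Among regions with 64 to 127 counts, the median log2 fold was 0.58 at 9 ribosomal protein starts and -0.06 at 1520 starts of other genes. From 128 to 255 counts it was 0.63 at 23 starts against 0.21 at 2874. From 256 to 511 counts it was 0.59 at 23 starts against 0.43 at 3375. The ribosomal protein starts thus sat near the same level in each of these bins while the other starts climbed with the count. At 512 to 1023 counts the medians were 0.71 (3 starts) and 0.64 (1277 starts).

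Over 128 to 511 counts together, 29 of 46 ribosomal protein starts (63.0%) had an interval above 1, against 47.4% of 6249 other starts. After the median of other gene-end regions of like count was subtracted, 45 of the 59 starts remained above 0, with a median of 0.25. Of the far ends, 8 of 22 did, with a median of -0.13. The regions behind the subtracted median were mostly starts (10381 of 15574), so this does not compare far ends with far ends. Unsubtracted, the median log2 fold was 0.20 at 6 ribosomal protein far ends of 128 to below 256 counts and -0.14 at 359 of other genes. It was 0.25 (3) against 0.04 (115) from 256 to below 512 counts. The order was reversed from 32 to below 64 counts, -0.55 (6) against -0.23 (637), and at the 1 far end above 512 counts.

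**Figure D2:**
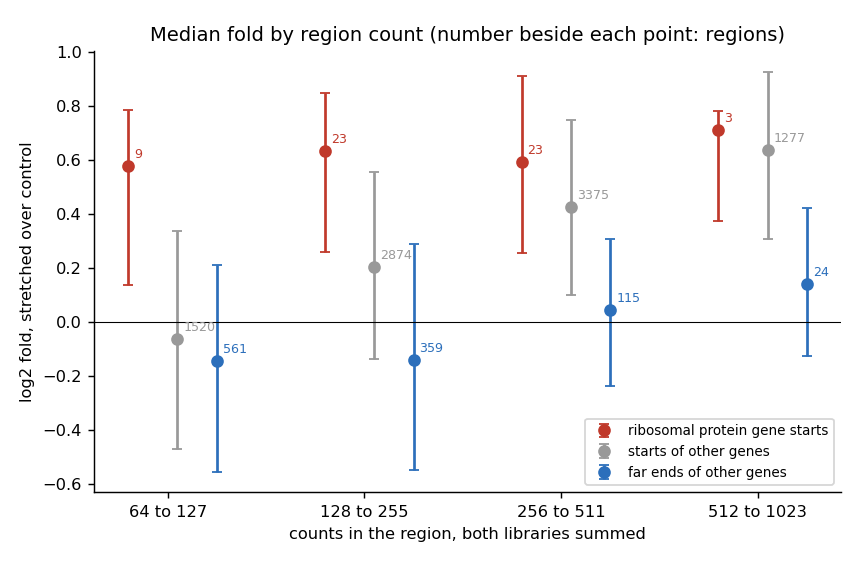
Median log2 fold (points) and quartiles (bars) by the summed count of a region, for ribosomal protein gene starts, starts of other genes and far ends of other genes, with the number of regions beside each point. In these bins, from 64 to 1023 counts, the ribosomal protein medians stay between 0.58 and 0.71, while those of other starts run from -0.06 to 0.64, and scaling by total counts lowers all of them by the same amount.

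Position and base composition were compared over starts of all counts, without matching for count unless stated. The median log2 fold of their starts was 0.73 with up to 10 protein-coding genes centred within 500 kb (14 starts), 0.77 with 11 to 20 (15), 0.42 with 21 to 40 (19) and 0.46 above 40 (11). The medians of other starts in these classes were 0.47, 0.29, 0.14 and 0.11. Ribosomal protein starts were thus above other starts in each class of gene density. For base composition, each gene's promoter was paired with the region of most counts at its outer start end. At Rpl18, Rpl19, Rpl22, Rpl32l and Rpl41 that region does not hold the start of the promoter used. By GC content of the promoter, the medians of ribosomal protein genes and other genes were close below 50% (0.33 for 6 genes against 0.31). They were 0.56 against 0.24 from 50 to 55% (16 ribosomal protein genes), 0.63 against 0.26 up to 60% (13) and 0.73 against 0.29 up to 65% (16). Above that they were 0.77 against 0.37 up to 70% (5) and 0.51 against 0.40 up to 80% (2).

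Summed over the regions of each gene, 70 of the 78 genes had a fold above 1, and the median gene was at 1.496. The interval lay above 1 for 49 genes, below 1 for 1 gene and held 1 for 28. Of 14461 other protein-coding genes summed in the same way, 42.3% had an interval above 1 and 10.8% below, with a median fold of 1.20. Accessibility per length, in TMM-scaled CPM per kb, had a median over genes of 10.9 in the stretched and 7.58 in the control library. It spanned 3.54 to 28.6 in the stretched and 2.21 to 27.9 in the control library.

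**Figure D3:**
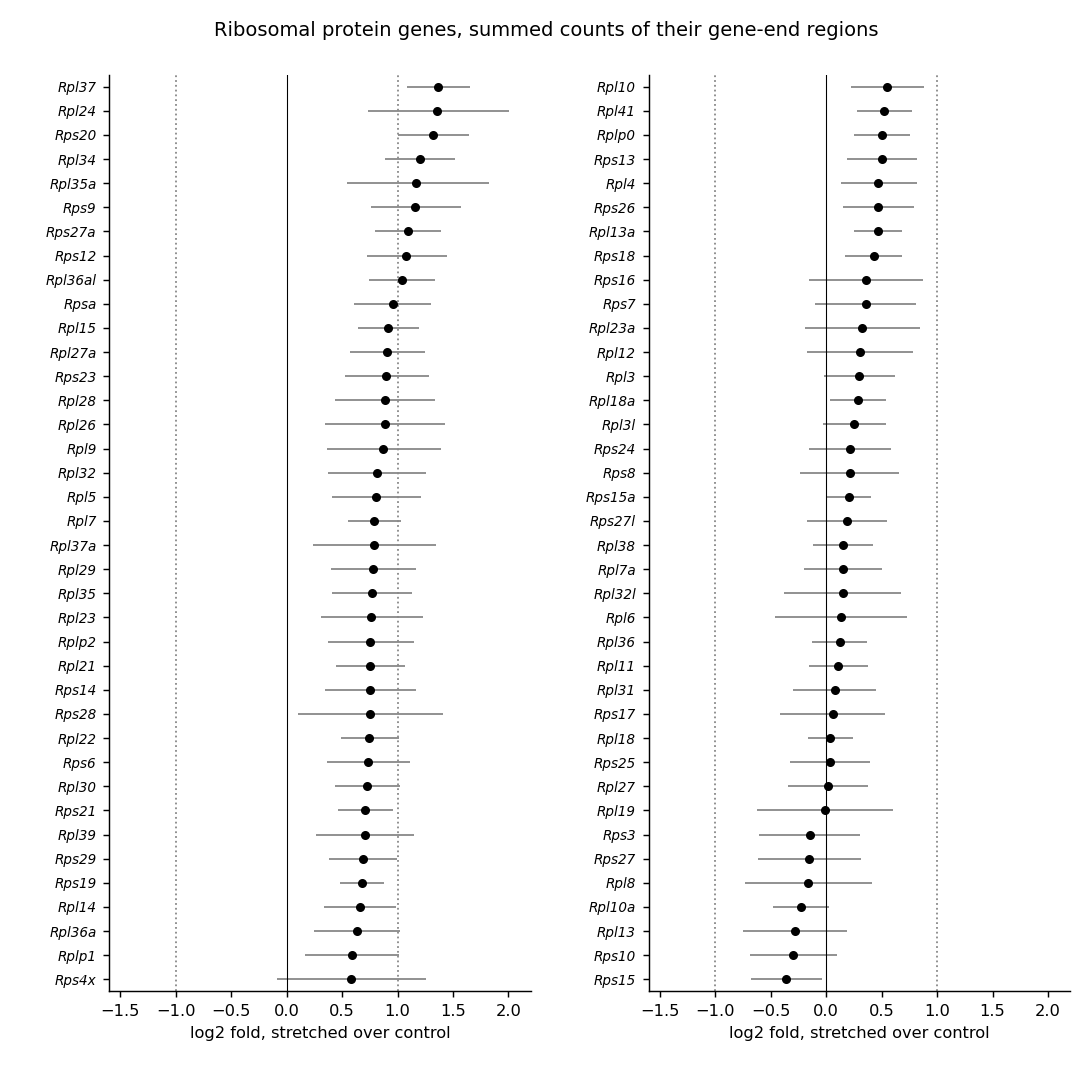
Log2 fold (stretched over control, TMM scale) of the summed gene-end regions of 76 of the 78 genes, sorted, with the 95% counting interval as a bar and dotted lines at 2-fold. The genes run from Rpl37 at 2.58-fold to Rps15 at 0.780-fold, and 47 bars lie above 0, which total scaling would shift downward together.

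The largest folds were found at proteins of both subunits. Rpl37, which encodes a zinc-binding protein of the large subunit, had 354 counts in the stretched and 145 in the control library, a fold of 2.58 (2.12 to 3.15). Its region, chr15:5115871-5117199, also touches an end of Card6. Rpl24, the gene mutated in the Belly spot and tail mouse, had 75 counts in the stretched and 31 in the control library (2.56, 1.66 to 4.02). Rps20, the small-subunit gene with known pigment mutants, had 274 and 116 counts in the stretched and control libraries (2.50, 2.002 to 3.13). Its strand is not listed, so its single region at chr4:3834785-3836040 was not assigned to the start. The stretched count was more than 2 times the control count at each of these genes.

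Rpl34 had 265 stretched and 122 control counts (2.30, 1.85 to 2.87). Rpl35a, one of the genes mutated in Diamond-Blackfan anaemia, had 68 stretched and 32 control counts (2.25, 1.45 to 3.53), with a fold of 1.13 when regions within 5 kb were included. Rps9 had 163 stretched and 77 control counts (2.24, 1.70 to 2.97). Rps27a, which encodes ubiquitin fused to a small-subunit protein, had 287 stretched and 142 control counts (2.14, 1.74 to 2.63). Each of these genes is represented by 1 region, and the intervals of their folds overlap, so their order is within counting error. Rps12, which in Drosophila is needed for cell competition, had 194 stretched and 97 control counts (2.11, 1.65 to 2.73). Rpl36al, a paralog of Rpl36a, had 274 stretched and 141 control counts (2.05, 1.67 to 2.53) in a region shared with Mgat2.

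At 3 further genes a single region was called higher. The start of Rpsa, which encodes a small-subunit protein also known as the laminin receptor precursor, had 178 stretched and 87 control counts (2.16, 1.66 to 2.83). The start of Rpl23, whose product binds MDM2 when free of the ribosome, had 89 stretched and 43 control counts (2.19, 1.503 to 3.23). The call at Rps15a came from a far-end region of only 28 stretched and 12 control counts (2.47, 1.21 to 5.32). The main far-end region of Rps15a, with 305 stretched and 324 control counts, had a fold of 0.995, and its start, with 109 and 70 counts in the stretched and control libraries, 1.65 (1.21 to 2.26).

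Genes with the most counts had moderate folds. Rps19, the gene most often mutated in Diamond-Blackfan anaemia, had 449 stretched and 263 control counts at its start (1.80, 1.55 to 2.11) and 85 stretched and 90 control counts at its far end (0.998). Rpl7, of the large subunit, had 384 stretched and 235 control counts (1.73, 1.46 to 2.04), and 1.12 with the median of like count removed. Start and far end of Rps19 thus differed within 1 gene, as did the start and the main far-end region of Rps15a. Rpl4 went the other way, at 0.992 at its start and 1.63 (1.22 to 2.19) at its far end, which it shares with Snapc5. Start and far end had like values at Rps24 (1.13 and 1.20) and Rpl38 (1.14 and 1.07). Rpl13a, whose human protein also takes part in an interferon-regulated translation block, had 411 stretched and 315 control counts (1.38, 1.19 to 1.60). Rpl18 had 399 stretched and 411 control counts (1.03, 0.892 to 1.18), and 0.663 with that median removed.

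A few genes showed values below 1, nearly all within counting error. Rps15, whose protein is needed to export the small subunit from the nucleus, had 144 stretched and 195 control counts (0.780, 0.625 to 0.973). Its low value came from the far end, which it shares with Apc2, with 55 stretched and 114 control counts (0.510, 0.363 to 0.709), while its start had 89 stretched and 81 control counts (1.16, 0.850 to 1.59). Rps10, a protein near the entry of the messenger RNA channel, had 98 stretched and 127 control counts (0.815, 0.620 to 1.07). Here too the far end was lower, with 20 stretched and 44 control counts (0.480, 0.268 to 0.832), and the start, with 78 and 83 counts in the stretched and control libraries, was at 0.993. Rpl10a, of the stalk beside the exit site, had 16 stretched and 46 control counts at 1 far-end region (0.368, 0.194 to 0.661) and 178 stretched and 185 control counts at its start (1.02, 0.823 to 1.26).

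Rpl13 had 71 stretched and 91 control counts (0.824, 0.596 to 1.14), Rpl8 50 stretched and 59 control counts (0.896, 0.602 to 1.33), and Rps3 77 stretched and 90 control counts (0.904, 0.658 to 1.24). Rps3 had the smallest fold of any start. None of these 3 intervals excluded 1 in either direction. No start region had an interval below 1.

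By subunit, 18 of 30 small-subunit genes and 31 of 48 large-subunit genes had an interval above 1, against the 42.3% of other genes, and the median log2 fold of their starts was 0.49 and 0.66. The 16 measured genes mutated in Diamond-Blackfan anaemia, an inherited failure of red cell production, had 8 intervals above 1 and 8 that held 1, with a median gene log2 fold of 0.41. That share is close to the 42.3% of other genes. Of the P-stalk, the lever that recruits elongation factors, Rplp0 had 309 stretched and 230 control counts (1.42, 1.19 to 1.69), Rplp1 had 115 and 81 in the stretched and control libraries (1.5, 1.12 to 2.02), and Rplp2 had 147 stretched and 92 control counts (1.69, 1.29 to 2.22). Rpl12, which anchors the stalk base, had 83 stretched and 71 control counts (1.24, 0.889 to 1.72).

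Rpl5 and Rpl11 form a particle with 5S ribosomal RNA that inhibits MDM2 and so stabilises p53. Rpl5 had 141 stretched and 85 control counts (1.75, 1.33 to 2.32). Rpl11 had 244 stretched and 239 control counts (1.08, 0.899 to 1.30), split into 109 and 87 at its start in the stretched and control libraries (1.32, 0.99 to 1.78) and 135 stretched and 152 control counts at its far end (0.939). Rps6, the target of the S6 kinases, had 156 stretched and 99 control counts (1.67, 1.29 to 2.16). Rpl38, mutated in the Tail-short mouse, had 235 stretched and 223 control counts (1.11, 0.923 to 1.34).

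Paralogs were set beside their partners. Rpl22 had 316 stretched and 199 control counts (1.68, 1.40 to 2.01), and Rpl22l1, outside the naming rule, 312 stretched and 184 control counts (1.79, 1.49 to 2.16). Rpl36a on the X chromosome had 141 stretched and 96 control counts (1.55, 1.19 to 2.03), against the 2.05 of Rpl36al. Rps27 had 75 stretched and 88 control counts (0.901, 0.653 to 1.24), and Rps27l, a p53 target in human cells, 138 stretched and 128 control counts (1.14, 0.889 to 1.46). The interval of each paralog overlapped that of its partner in these pairs. Rpl3 had 178 stretched and 153 control counts (1.23, 0.985 to 1.54), whereas the muscle paralog Rpl3l was covered only at a far end shared with Msrb1 and had no region at its listed start. Of the other X-linked genes, Rpl10 was at 1.47, Rpl39 at 1.63 and Rps4x at 1.49. Rpl7l1, Rps3a1, Fau and Rack1, which the naming rule leaves out, were at 1.20, 1.14, 1.36 and 1.80.

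No region of at least 20 counts overlapped the annotated ends of 6 of the 84 genes, namely Rpl10l, Rpl17, Rpl37rt, Rpl39l, Rps2 and Rps27rt. Rpl37rt had 1 region of 9 counts, and no listed peak of either library lay within 1 kb of the annotated ends of these genes. At Rpl17, the nearest merged region of any count lay 1023 bp from the annotated end of lower coordinate, just outside the 1 kb window. The listed start of Rps2 lies 1942 bp inside the outer annotated end, in a region with 108 stretched and 79 control counts (1.44, 1.07 to 1.96). The listed starts of Rpl18 and Rpl19 also lie inside the gene. The region at the Rpl18 start had 76 stretched and 58 control counts (1.38, 0.971 to 1.98) and that at the Rpl19 start 59 stretched and 53 control counts (1.18, 0.798 to 1.74). The 399 and 411 counts of Rpl18 above are therefore not from its listed start.

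The peak lists, called by the authors in each library alone, gave the position of the signal. A peak lay in 95 of 105 regions (90.5%, 83.2 to 95.3) in the stretched and 94 (89.5%, 82.0 to 94.7) in the control library, with 93 regions in both. All starts but 1 had a peak in each library, 58 of 59 (98.3%, 90.9 to 99.96). Starts of other genes had one in 93% in the stretched and 92% in the control library. At far ends 14 of 22 had one in each (63.6%, 40.7 to 82.8). At far ends of other genes the shares were 72% in the stretched and 67% in the control library. The bracketed ranges of these shares are binomial, with each region taken as an independent draw, and do not cover differences between animals. Shares at other genes lie within them, but the range at the 22 far ends is wide and no test was run. The median percentile of the authors' fold enrichment within the library's own list was 79.7 in the stretched and 69.7 in the control library at the starts, and 77.6 and 73.2 at starts of other genes. The lists differ in length, so these percentiles show no change.

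Summits were placed relative to the outer annotated end on the start side, in 58 start regions of 57 genes. Most lay close to it, and 6 summits in the stretched and 6 in the control library were more than 1000 bp away. In 30 of 58 starts (51.7%) the highest summit was within 100 bp of the start in the stretched library, against 16 (27.6%) in the control library. Summits of other genes were within 100 bp in 34.9% of 8691 starts in the stretched and 27.0% of 8601 in the control library. The stretched summit was nearer to the start than the control summit in 39 of 58 start regions of ribosomal protein genes (67.2%), and in 59.2% of 8281 start regions of other genes. In the control library 3 summits fell in the first 100 bp downstream and 15 in the next 100 bp, whereas in the stretched library the numbers were 15 and 9. Summits of the same start differed by a median of 28.5 bp, and 35 of 58 lay within 50 bp of each other.

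**Figure D4:**
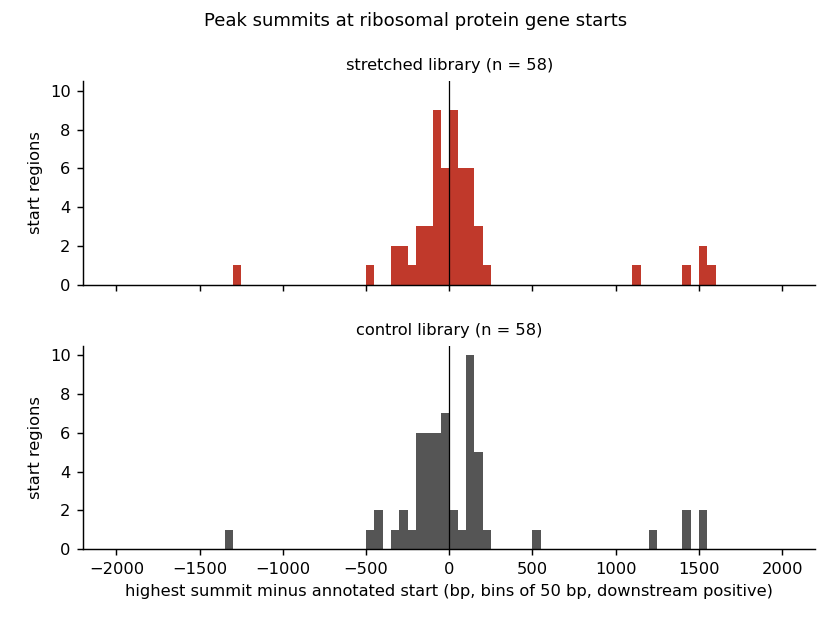
Distance in bp of the highest peak summit from the outer annotated start in 58 start regions of 57 ribosomal protein genes, in the stretched (top) and control (bottom) libraries. Of the 58, 30 stretched and 16 control summits lie within 100 bp of the start, against 34.9% and 27.0% at other genes. In the first 100 bp downstream lie 15 stretched and 3 control summits (25.9% and 5.17%), against 16.6% and 13.1% at other genes.

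Promoter sequence was compared between 64 ribosomal protein genes in the RefSeq table (GRCm38) and 17428 other promoters, each 250 bases before and 50 after the start, with both strands searched. The ETS motif CCGGAAG was found in 24 of 64 (37.5%) against 11.7% of other promoters, and TCTCGCGA in 9 (14.1%) against 1.44%. A cytosine at the start that begins a run of at least 5 pyrimidines was found in 14 (21.9%) against 2.1%, and a run of at least 7 pyrimidines beginning from 10 bases before to 20 after the start in 31 (48.4%) against 20.7%. These are features known for the family. TATAAA was in 10.9% against 13.4%, CACGTG in 7.81% against 7.80%, CCAAT in 32.8% against 39.2% and AAGATGGC in 7.81% against 3.18%. The AP-1 motif TGANTCA, N being any base, was in 1 promoter (1.56%) against 7.06%, and the TEAD motif GGAATG in 10.9% against 13.4%.

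The folds of ribosomal protein starts were also set beside these motifs, as a description. Promoters and regions were paired as for GC content above, so a few folds come from a region that does not hold the promoter's start. Starts with the ETS motif (22) had a median log2 fold of 0.59 and those without (36) 0.61, with 0.47 and 0.27 at other genes. Starts with CCAAT (20) had 0.71 and those without (38) 0.46, while at other genes both values were 0.31. The 29 starts with the run of 7 pyrimidines had 0.47 and the 29 without it 0.72, while at other genes both were 0.31. Starts with TCTCGCGA (9) had 0.75 and those without (49) 0.55, with 0.59 and 0.30 at other genes. The groups are small, and a motif match is a match of letters.

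Other genes of protein synthesis were measured in the same way. Among 37 cytosolic translation factors, 26 had an interval above 1 and 0 below, with a median gene log2 fold of 0.54, close to the 0.58 of the 78 ribosomal protein genes. The shares for other protein-coding genes, against which the counts of each of these lists are read, were 42.3% above 1 and 10.8% below. The highest were Eif3a, the scaffold of initiation factor 3, with 213 stretched and 82 control counts (2.74, 2.12 to 3.59), and its partner Eif3e, with 143 stretched and 69 control counts (2.19). The lowest were Eif3k (0.852) and Eif3g (0.862). Of 39 ribosome biogenesis genes, 27 had an interval above 1 and 1 below, at a median of 0.67. Gar1, of the pseudouridylation particles, had 197 stretched and 76 control counts (2.74, 2.09 to 3.62) and Heatr1, of the small-subunit processome, 296 stretched and 124 control counts (2.52), against 0.751 for Rrp1b and 0.771 for Bop1.

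Regulators of translation, such as kinases of the mTOR and stress pathways, had 12 of 21 genes with an interval above 1 and 2 below, at a median of 0.33. Rps6ka3, a ribosomal S6 kinase, had 319 stretched and 135 control counts (2.497) and Eif2ak4, which senses amino acid shortage, 249 stretched and 142 control counts (1.85). Larp1, which binds the pyrimidine tract of these messages, had 102 stretched and 164 control counts (0.657, 0.508 to 0.847), and Mxd1, a MAX partner that opposes MYC, 331 stretched and 450 control counts (0.777). Mitochondrial ribosomal proteins had 36 of 77 genes above 1 and 6 below, at a median of 0.37, which is near those shares. Among those with at least 100 counts the folds ran from 3.31 at Mrps28 and 2.79 at Mrpl17 to 0.478 at Mrps2 and 0.615 at Mrpl42. At starts of 128 to 511 counts the medians were 0.61 for cytosolic ribosomal proteins, 0.59 for translation factors, 0.66 for biogenesis and 0.23 for mitochondrial ribosomal proteins, against 0.33 for all other starts. The level of the cytosolic ribosomal proteins was thus near that of translation factors and biogenesis genes.

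**Figure D5:**
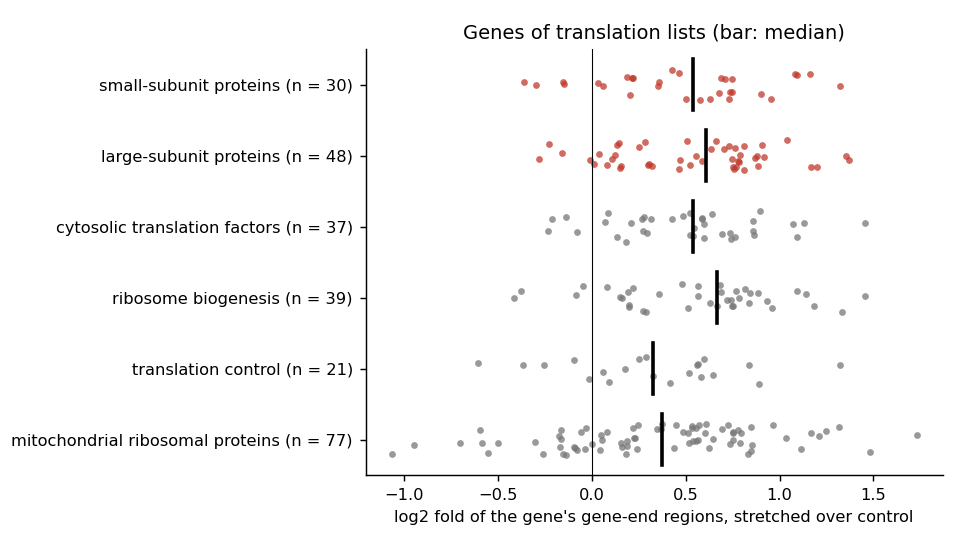
Log2 fold of the summed gene-end regions (stretched over control, TMM scale) of each gene, with the median as a bar, for small-subunit and large-subunit proteins and 4 other lists. Medians run from 0.33 for translation control to 0.67 for ribosome biogenesis, and total scaling would shift every list downward alike.

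The sorted cells carried accessible chromatin at basal markers, but also at markers of other skin cells. All 6 basal keratinocyte genes checked, such as Krt5 and Trp63, had gene-end regions, with 1823 stretched and 1623 control counts in sum (1.19). Regions were also found at 4 of 4 suprabasal genes (510 stretched, 535 control counts) and 4 of 4 hair follicle stem cell genes (568 stretched, 628 control counts). Of the melanocyte genes 3 of 4 had regions (183 stretched, 217 control counts), with none at Tyr. Having a region thus did not set basal markers apart from these lists. Per kb, the basal list had 12.8 in the stretched and 10.8 in the control library, and the melanocyte list 10.1 and 11.4. The suprabasal and hair follicle lists were below the basal list in both libraries. Regions were found at 1 of 3 T cell genes (9 stretched, 39 control counts, with none at Cd3e and Ptprc) and at 2 of 3 fibroblast genes (73 stretched, 134 control counts, with none at Pdgfra). There was none at the 2 Langerhans cell and 2 endothelial genes. The part of the differing T cell and fibroblast counts in the ribosomal protein values was not tested.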

How the data were processed

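ATAC-seq of 1 stretched and 1 untreated mouse was analysed from deposited tables, with groups taken from the treatment labels. The deposited counts are the authors' raw counts of each library over 109257 merged regions, 11803785 in the stretched and 8820178 in the control library. Only this number of counts sets the intervals of the folds. Those intervals cover counting error only, since copies of 1 molecule made by PCR may be counted more than once. Peaks were called by the authors per library with MACS2, per the file headers, at a q cutoff of 0.05. Per the file headers, 23876613 stretched and 31944854 control fragments were used. The pileup is a deposited signal. The deposited fold enrichment is a ratio over the local background of its own library. The -log10 p-value and q-value of each peak were deposited by the authors too. Per the submitters' processing notes, the build was GRCm38 and the tools were HTSeq, MACS2 2.1.0.20151222, Picard, SAMtools and Bowtie2 2.2.6. How duplicates, the Tn5 shift and counting were handled is not given in the sources.

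Libraries were scaled with TMM (edgeR 4.0.16, R 4.3.3). Region calls needed a fold of 2, 20 counts and an interval that excludes 1. No test was run. Coordinates are printed 1-based, from 0-based starts in the tables. Strand came from the RefSeq promoter table. The members and lists were chosen with earlier results of these data known. Genes named with full values were the 6 with the most counts, the largest and the smallest folds (at least 100 counts), those with a called region, paralogs, stalk and 5S genes, and the highest and lowest pair of each list, while Rps6, Rpl38 and Rps3 (as the lowest start) and genes in passing were named after their values were seen. A few genes that meet these rules are counted but not reported here by name. Alternatives covered scaling (also DESeq2 1.42.0 size factors), count trend, filters, windows and gene end. The call rule was checked on simulated data. Intervals came from scipy 1.17.1, tables from pandas 2.3.3 and numpy 2.4.6, and plots from matplotlib 3.10.9, in Python 3.11.15.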

Additional observations from a re-analysis of the deposited data

How the results depend on the processing

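All settings kept the sum of the ribosomal protein regions above 1, from 1.015 with total scaling to 1.528. The fold of 1.44 became 1.302 without the 10 large regions in the scale, 1.222 with a lowess trend on count removed and 1.151 with the median of gene-end regions of like count removed. It was 1.526 with a 0 kb and 1.355 with a 5 kb window, 1.498 for starts only and 1.528 for regions that hold a listed start, a setting added after the data were seen. The median log2 fold of 0.46 reversed to -0.03765 with total scaling. It was 0.32 without the large regions, 0.31 after lowess, 0.23 at like count, 0.50 at 50 or more counts, 0.57 at 100 or more, 0.63 and 0.33 for 0 and 5 kb, 0.59 for starts, 0.57 without other gene ends and 0.58 for listed starts. The 12 regions called higher became 0 with total scaling, 7 without the large regions, 5 after lowess, 4 at like count and 45 at a limit of 1.5-fold. The 2 called lower became 5 with total scaling and 0 at 100 counts, at 0 kb, for starts and for listed starts. The shares of other regions called under these settings were not measured, so these numbers have no background beside them. Among genes, Rpl13a reversed to 0.975 with total scaling. Rps15 reversed to 1.161 with 0 kb, with starts only and without other gene ends, which leave out its far end. Rps15a reversed to 0.8135 with total scaling, 0.9148 after lowess and 0.8551 at like count. Without other gene ends Rpl10a was at 0.368, and at like count Rpl18 was at 0.663 and Rpl7 at 1.12. The causes of the other changes were not tested. With DESeq2 size factors all 37 named genes kept their direction. With peaks of a -log10 q of at least 5, the shares of regions with a peak were 86.7% in the stretched and 84.8% in the control library. Asking for at least 50% of the peak inside the region left both shares unchanged. Adding 6 related genes outside the naming rule, also chosen after the data were seen, moved no summary value beyond its limits. No paired analysis was possible because each group has 1 library. With 1 animal per group, differences between animals, sorts and libraries cannot be separated from stretching, and many regions under about 100 counts have wide intervals.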
